A study of Mus musculus with 12 samples.

Results

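De novo lipogenesis is the pathway by which the liver makes fatty acids from acetyl-CoA. It was followed here through 9 genes chosen by name, of 22180 genes tested in all: Fasn, Acaca, Acacb, Acly, Acss2 and Me1, which encode its enzymes, and Srebf1, Mlxipl and Thrsp, which encode regulators. Each of the 9 was read by 1 transcript cluster of an Affymetrix MoGene 2.0 ST array, which summarises several short probes per gene. RNA came from whole livers of 6 Ppara KO mice and 6 WT mice, all female C57Bl/6 adults aged 12 to 14 weeks, each hybridised to its own array. The disrupted gene, Ppara, encodes PPARα, a transcription factor switched on by fatty acids that raises their oxidation in liver. The labels do not say which part of Ppara was disrupted or whether the WT mice were littermates, and give neither collection time nor feeding state.

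Of the 9 lipogenic genes, 1 rose and 1 fell in Ppara KO livers. Thrsp, an inducible regulator of lipogenesis, was 1.90-fold higher in Ppara KO livers, and no Ppara KO value overlapped a WT value. Acss2, which makes acetyl-CoA from acetate, was 1.36-fold lower, with overlapping values. The other 7 genes did not pass the test, which was limma over all genes with a Benjamini-Hochberg adjusted p under 0.05. The share of all 22180 genes called in this comparison was 10.2% in either direction, 4.46% higher and 5.77% lower in Ppara KO, and 2 calls among 9 genes are not read as a departure from that share. The median difference of the 9 genes, Ppara KO minus WT, was -0.20 on the log2 scale, against 0.009 for all genes tested.

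As background, lipogenesis starts from citrate that leaves mitochondria and is split to cytosolic acetyl-CoA by ATP citrate lyase. Acetyl-CoA carboxylase then makes malonyl-CoA, and fatty acid synthase extends the chain to palmitate with reducing power from NADPH. In liver the genes are induced by insulin through SREBP-1c, the product of Srebf1, and by glucose through ChREBP, the product of Mlxipl, and they are known to swing widely between fasting and feeding.

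The proximal promoters of the gene that rose, the gene that fell and the gene of the terminal synthase are given in that order, since the Fasn promoter is a textbook site of joint SREBP and NF-Y action. Each is the RefSeq window of 250 bases before to 50 bases after the start site, in the mouse build GRCm38.p6, and all 9 genes had at least 1 such window. Capitals mark the NF-Y box CCAAT or its reverse complement ATTGG. The Thrsp window is chr7:97417501-97417800 on the minus strand, the Acss2 window is chr2:155517793-155518092 on the plus strand, and the Fasn window is chr11:120824498-120824797 on the minus strand.
Thrsp: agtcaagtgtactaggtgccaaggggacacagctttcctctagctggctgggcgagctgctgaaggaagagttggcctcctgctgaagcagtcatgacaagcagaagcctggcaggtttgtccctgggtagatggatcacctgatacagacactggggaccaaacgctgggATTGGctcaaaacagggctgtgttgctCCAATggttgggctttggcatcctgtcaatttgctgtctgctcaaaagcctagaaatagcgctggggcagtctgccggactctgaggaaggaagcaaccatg
Acss2: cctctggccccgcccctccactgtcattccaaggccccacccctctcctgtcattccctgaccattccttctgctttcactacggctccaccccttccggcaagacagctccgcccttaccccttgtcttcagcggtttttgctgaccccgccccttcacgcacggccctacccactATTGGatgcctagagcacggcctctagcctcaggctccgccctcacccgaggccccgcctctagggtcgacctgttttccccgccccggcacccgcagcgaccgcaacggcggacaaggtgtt
Fasn: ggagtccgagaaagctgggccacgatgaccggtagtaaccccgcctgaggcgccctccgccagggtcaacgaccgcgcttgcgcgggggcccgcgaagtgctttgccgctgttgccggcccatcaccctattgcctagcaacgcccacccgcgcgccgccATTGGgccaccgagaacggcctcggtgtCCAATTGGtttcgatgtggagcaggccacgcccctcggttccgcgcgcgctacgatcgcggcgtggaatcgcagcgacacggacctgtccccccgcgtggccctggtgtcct
Thrsp held the box at positions -79 and -52 from the start site, Acss2 at -73, and Fasn at -90, -62 and -59, the last pair overlapping in a palindrome. Counting all start sites, 9 of 13 windows and 8 of the 9 genes held at least 1 box, and Acaca held none in its 1 window. That window, chr11:84195188-84195487 on the plus strand, lies inside the gene (84129635 to 84401651). The start of the gene further upstream was therefore not searched. The box was in 37.4% of all 32851 promoter windows of this length. A further 6 motifs were searched on both strands. The SREBP motif TCACNCCAC was in 1 of the 13 windows, of Mlxipl, and in 1.24% of all windows. The E-box CACGTG was in 1 other window of Mlxipl and in 7.15% of all windows. The nuclear receptor half-site AGGTCA was in the windows of Acacb and Acly and in 16.3% of all windows. The direct repeats DR1 and DR4, in which that half-site occurs as a pair spaced by 1 or 4 bases, and the D-box TTATGTAA were in 0 of the 13 windows, and in 0.0396%, 0.0152% and 0.938% of all windows. These letters describe the windows and were not tested against expression.

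Values are log2 RMA values, a scale on which arrays are made comparable for each gene but on which 2 genes cannot be ranked against each other. The 12 arrays had medians of 4.13 to 4.17. All 10 hepatocyte markers were measured and 0 were called by limma (1 with an unadjusted p under 0.05), with albumin, Alb, at 13.16 ± 0.03 in Ppara KO livers and 13.19 ± 0.03 in WT livers (SD, n = 6 each). Some markers of other cells were called. Cd5l of 8 macrophage markers rose by 0.45 (SE 0.13) and Cd8a of 6 lymphocyte markers by 0.46 (SE 0.10). Krt19 and Sox9 of 5 bile duct cell markers fell by 0.26 (SE 0.07) and 0.39 (SE 0.11). The part of cell composition was not tested. The Ppara transcript cluster did not separate the genotypes (7.81 to 8.16 in Ppara KO, 7.71 to 8.14 in WT), and where its probes lie relative to the disrupted part is not stated in the labels. Among 9 measured PPARα targets 7 fell, 0 rose and 2, Ehhadh and Pdk4, were not called. Cyp4a14, a PPARα target that fell, ranged from 3.50, under the array medians, to 6.44 in Ppara KO livers. In WT livers it ranged from 9.95 to 11.01. Of 16 measured clock genes 11 rose and 3 fell. Dbp, a clock output gene, was at 9.83 ± 0.42 in Ppara KO and 6.34 ± 0.39 in WT, and Npas2, a gene of the activating arm of the clock, at 4.24 ± 0.20 in Ppara KO and 7.72 ± 0.12 in WT (SD, n = 6 each). Lipogenic genes have daily rhythms in liver, and the part of clock state in these results was not tested.

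**Figure D1:**
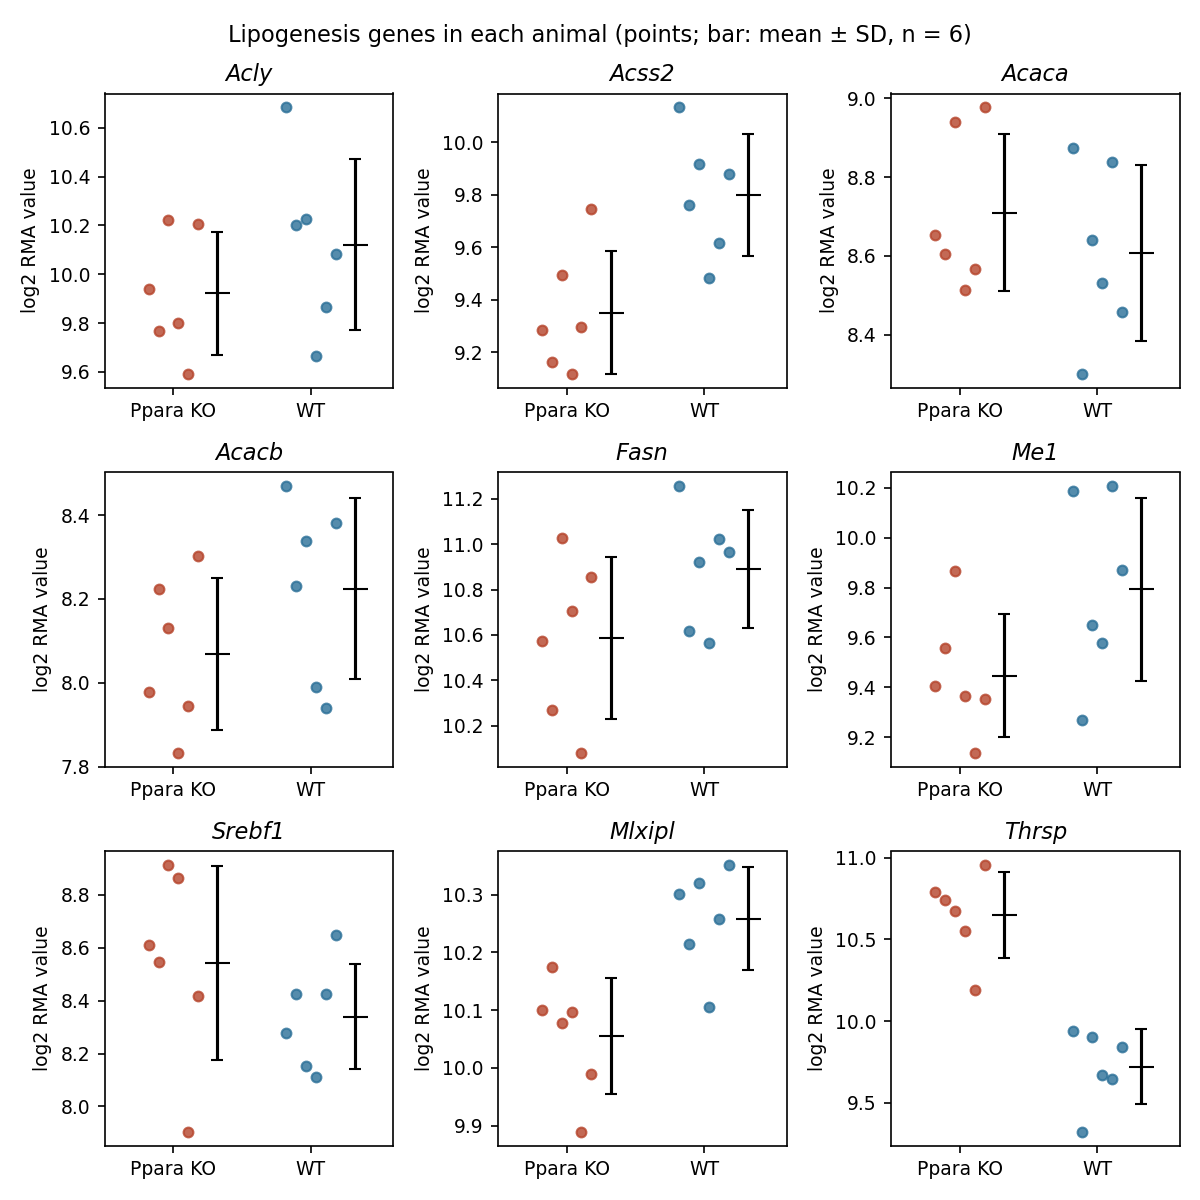
Log2 RMA values of the 9 lipogenesis genes in each animal, with Ppara KO left of WT in every panel; points are animals and bars give the mean ± SD (n = 6). The groups overlap in 8 panels, and only for Thrsp do all 6 Ppara KO animals (10.19 or above) lie over all 6 WT animals (9.94 or below).

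The genes that supply cytosolic acetyl-CoA differed by unequal amounts. Acss2, acetyl-CoA synthetase of the cytosol and nucleus and a known SREBP target, had log2 values of 9.28, 9.16, 9.49, 9.12, 9.30 and 9.75 in Ppara KO animals 1 to 6, against 10.13, 9.76, 9.92, 9.48, 9.62 and 9.88 in WT animals 1 to 6. All 6 Ppara KO animals lay below the WT mean, and 4 of them below the lowest WT animal, number 4, while Ppara KO 6 and Ppara KO 3 reached into the WT range. The mean was 9.35 ± 0.23 in Ppara KO and 9.80 ± 0.23 in WT (SD, n = 6 each), a difference of -0.45 ± 0.12 (SE, 95% interval -0.71 to -0.19, limma adjusted p = 0.0282). An exact 2-sided permutation test of the arrays gave p = 0.0130 for this gene alone. The call ended when any 1 of WT 1, 3 and 6 or Ppara KO 1, 2, 4 and 5 was left out, with adjusted p-values of 0.0525 to 0.0635 and differences of -0.44 to -0.38. In bulk liver a smaller number of expressing cells and less RNA per cell cannot be told apart.

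Acly, ATP citrate lyase, had values of 9.94, 9.77, 10.22, 9.80, 9.59 and 10.21 in Ppara KO animals 1 to 6, against 10.69, 10.20, 10.23, 9.67, 9.86 and 10.08 in WT animals 1 to 6. The groups overlapped almost throughout, with WT 1 above every other animal. The difference of -0.20 ± 0.15 (SE, 95% interval -0.53 to 0.13) did not pass the test (limma adjusted p = 0.495). Without WT 1 the difference was -0.09. A fall as large as that of Acss2 lies within the interval.

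The carboxylases showed no called difference. Acaca, which encodes the cytosolic ACC1 that feeds fatty acid synthase, ranged from 8.51 to 8.98 in Ppara KO (8.71 ± 0.20) and from 8.30 to 8.87 in WT (8.61 ± 0.22; SD, n = 6 each), a difference of 0.10 ± 0.11 (SE, limma adjusted p = 0.659) that ran from 0.04 without WT 2 to 0.16 without WT 1. Acacb encodes ACC2, the form at the mitochondrial surface whose malonyl-CoA restrains carnitine palmitoyltransferase 1. It ranged from 7.83 to 8.30 in Ppara KO (8.07 ± 0.18) and from 7.94 to 8.47 in WT (8.22 ± 0.22), a difference of -0.16 ± 0.11 (SE, limma adjusted p = 0.434). The log2 ratio of Acacb to Acaca within an animal was -0.64 ± 0.14 in Ppara KO and -0.38 ± 0.31 in WT (SD, n = 6 each), and its genotype difference of -0.26 did not pass (exact 2-sided permutation p = 0.102, adjusted 0.102 over the 3 ratios tested). Without WT 5 that ratio did pass, at -0.36 with an adjusted p of 0.0162.

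Fasn, which encodes the multifunctional fatty acid synthase, had values of 10.57, 10.27, 11.03, 10.71, 10.08 and 10.86 in Ppara KO animals 1 to 6, against 11.26, 10.62, 10.92, 10.57, 11.02 and 10.96 in WT animals 1 to 6. Ppara KO 2 and Ppara KO 5 lay below all WT animals, and the other 4 within the WT range. The mean was 10.59 ± 0.36 in Ppara KO and 10.89 ± 0.26 in WT (SD, n = 6 each). The difference of -0.31 ± 0.16 (SE, 95% interval -0.64 to 0.03) was not called (limma adjusted p = 0.265; exact 2-sided permutation p = 0.136).

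Me1, the cytosolic malic enzyme that yields NADPH, had values of 9.41, 9.56, 9.86, 9.37, 9.14 and 9.36 in Ppara KO animals 1 to 6, against 10.18, 9.27, 9.65, 9.58, 10.21 and 9.87 in WT animals 1 to 6. WT 1 and WT 5 stood highest, WT 2, 3 and 4 lay within the Ppara KO range, and WT 6 lay just above its top. The difference of -0.35 ± 0.16 (SE, 95% interval -0.68 to -0.01) had an adjusted p of 0.197 in limma and an exact 2-sided permutation p of 0.0887. Me1 is also listed among PPARα-responsive genes in rodent liver.

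**Figure D2:**
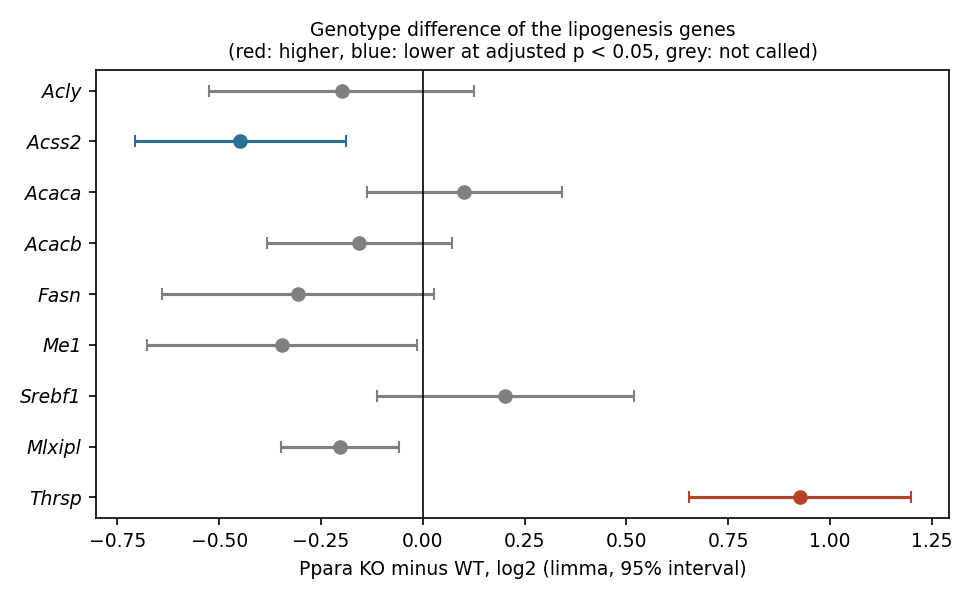
Difference of Ppara KO minus WT in log2 units for each lipogenesis gene, enzymes above and regulators below; points are limma estimates and bars their 95% intervals. Acss2 (-0.45) and Thrsp (0.93) passed the test, and the interval of Mlxipl (-0.35 to -0.06) excludes 0 although its adjusted p was 0.0724.

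The genes of the 2 transcription factors leaned in opposite directions, and neither was called. Srebf1 had values of 8.61, 8.55, 8.91, 8.86, 7.90 and 8.42 in Ppara KO animals 1 to 6, against 8.28, 8.42, 8.15, 8.11, 8.42 and 8.65 in WT animals 1 to 6. Ppara KO 5 was the lowest of all 12 animals, while Ppara KO 3 and Ppara KO 4 were the highest. The difference was 0.20 ± 0.15 (SE, 95% interval -0.11 to 0.52, limma adjusted p = 0.468), and it was 0.33 without Ppara KO 5 and 0.13 without Ppara KO 3. The cluster does not tell the SREBP-1a and SREBP-1c transcripts apart, and mRNA does not show how much of the membrane-bound precursor is cleaved.

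Mlxipl varied least of the 9 genes, with an SD of 0.10 in Ppara KO and 0.09 in WT. Its values were 10.10, 10.18, 10.08, 10.10, 9.89 and 9.99 in Ppara KO animals 1 to 6, against 10.30, 10.21, 10.32, 10.10, 10.26 and 10.35 in WT animals 1 to 6. All 6 Ppara KO animals lay below the WT mean and 5 below the lowest WT animal, number 4. The difference of -0.20 ± 0.07 (SE) corresponds to 1.15-fold less, with an exact 2-sided permutation p of 0.00433 for the gene alone but a limma adjusted p of 0.0724 over all genes. It passed without WT 4 (-0.23, adjusted p = 0.0445), with an intensity trend in the variance prior (adjusted p = 0.0214) and with genes under the median level left out (adjusted p = 0.0254). The log2 ratio of Mlxipl to Srebf1 was 1.51 ± 0.30 in Ppara KO and 1.92 ± 0.17 in WT (SD, n = 6 each), a difference of -0.41 (exact 2-sided permutation p = 0.0173, adjusted 0.0260 over the 3 ratios). That call ended without WT 1, 3 or 4, where the adjusted p was 0.0552, 0.0584 and 0.0552. The ratio joins differences of opposite sign, neither of them called. This pair, like the other ratios, was chosen with earlier results of these data known, so its p is a description and no separate evidence.

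Thrsp encodes Spot 14, a small protein without enzymatic activity that responds to thyroid hormone, carbohydrate and insulin and promotes fatty acid synthesis. It had values of 10.79, 10.74, 10.67, 10.55, 10.19 and 10.96 in Ppara KO animals 1 to 6, against 9.94, 9.32, 9.91, 9.67, 9.65 and 9.84 in WT animals 1 to 6. The groups did not overlap, an arrangement found in 6.51% of all genes, and the nearest animals were Ppara KO 5 and WT 1. The mean was 10.65 ± 0.26 in Ppara KO and 9.72 ± 0.23 in WT (SD, n = 6 each). The difference was 0.93 ± 0.13 (SE, 95% interval 0.65 to 1.20, limma adjusted p = 2.68e-04), and the exact 2-sided permutation p of 0.00216 is the smallest that 6 against 6 can give. Leaving out any single animal moved the difference between 0.85 and 1.02, and the call held in all 12 cases.

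Thrsp was called higher and Fasn was not called. The log2 ratio of Thrsp to Fasn within an animal was 0.06 ± 0.29 in Ppara KO and -1.17 ± 0.19 in WT (SD, n = 6 each). The ranges were -0.36 to 0.47 in Ppara KO and -1.38 to -0.89 in WT, so the ratio separated all animals, with a genotype difference of 1.23 (exact 2-sided permutation p = 0.00216, adjusted 0.00649 over the 3 ratios). The pair was picked with the rise of Thrsp known, so this p adds nothing to the one for Thrsp. Mid1ip1, which encodes a relative of Spot 14 that binds acetyl-CoA carboxylase, was looked at after its values were seen: it ranged from 6.65 to 7.76 in Ppara KO and from 6.86 to 7.42 in WT, a difference of 0.28 ± 0.15 (SE) that was not called (limma adjusted p = 0.304).

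**Figure D3:**
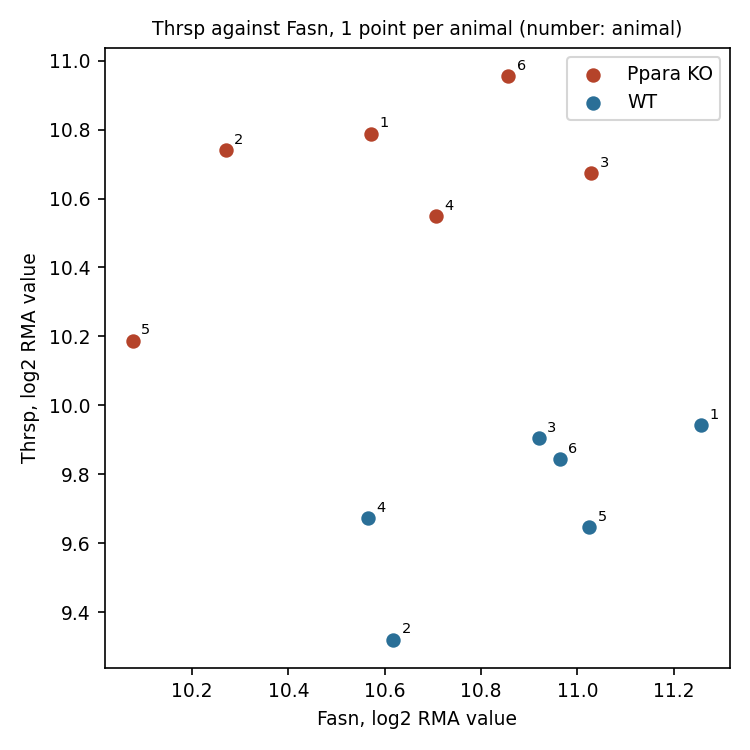
Log2 RMA value of Thrsp (vertical) against that of Fasn (horizontal), 1 point per animal with its number, Ppara KO in red and WT in blue. The genotypes overlap along the Fasn axis but not along the Thrsp axis, where the lowest Ppara KO animal is at 10.19 and the highest WT animal at 9.94.

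Animals of 1 genotype differed from each other in these genes more than is usual on this array. The median SD within a genotype was 0.25 for the 9 genes, against 0.14 for all genes whose mean level reached the median, and 8 of the 9 genes lay above that value. The members deviated together in some animals. In Ppara KO 3 all 9 genes lay above the mean of their genotype, with a median deviation of 0.23, and in Ppara KO 5 all 9 lay below it, with a median of -0.31. In WT 1 the count was 8 above and 1 below, with a median of 0.27, and in WT 4 all 9 lay below, with a median of -0.23. The other animals were mixed.

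**Figure D4:**
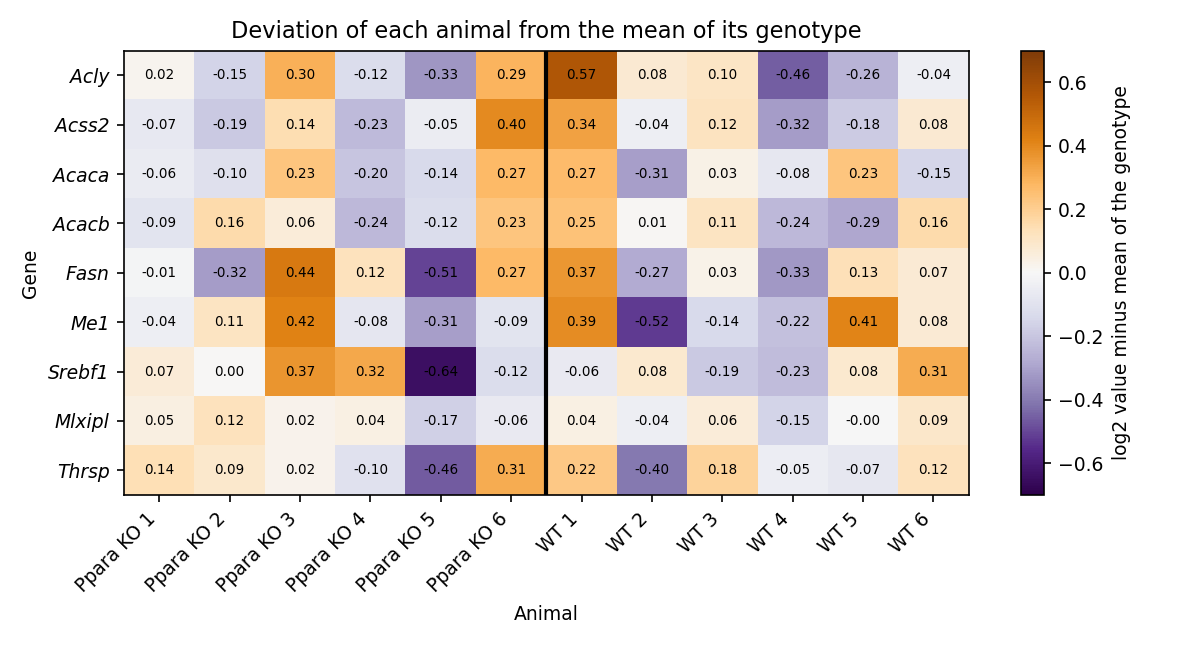
Deviation of each animal (columns, Ppara KO left and WT right of the black line) from the mean of its own genotype for each gene (rows), in log2 units, with orange above and purple below the mean. Columns Ppara KO 5 and WT 4 are purple in all 9 rows and Ppara KO 3 is orange in all 9.

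Pairwise, 32 of 36 Pearson correlations within Ppara KO and 33 of 36 within WT were positive, with medians of 0.56 and 0.51 (n = 6 animals each). Acly and Acss2 had r = 0.96 in WT (exact permutation p = 0.00556) and Spearman's rho = 0.94 (exact permutation p = 0.0167), and r = 0.78 without WT 1 and WT 4. In Ppara KO the same pair had r = 0.77 (exact permutation p = 0.0694) and rho = 0.54 (exact permutation p = 0.297), and r = -0.15 without Ppara KO 3 and Ppara KO 6, so that relation rests on those animals. Fasn and Acly had r = 0.91 in Ppara KO (exact permutation p = 0.0208) and rho = 0.94 (exact permutation p = 0.0167), and r = 0.74 without Ppara KO 3 and Ppara KO 5. In WT that pair had r = 0.66 (exact permutation p = 0.146) and rho = 0.49 (exact permutation p = 0.356), and r = 0.74 without WT 2 and WT 4. None of the 72 correlations passed adjustment over all of them, the smallest adjusted p being 0.200 for r and 0.529 for rho, and 8 had an unadjusted p under 0.05 for r. These correlations share the normalization of the arrays.

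Genes of like pattern were sought without placeholder symbols, such as Gm and Rik names, and without some families, such as olfactory receptors. After removal of the genotype means, the 5 of these genes outside the pathway list whose values over the 12 arrays were most like those of Fasn were Gbp4 (r = 0.94), Car1 (0.89), Recql4 (0.87), Gpam (0.87) and Pramel17 (0.87). Among the 9 genes themselves the same measure against Fasn ran from 0.35 for Acacb to 0.74 for Acly. For Thrsp the 5 were Nap1l5 (r = 0.91), Pif1 (0.89), Sobp (0.88), Ndufa12 (0.87) and Cd3eap (0.86), and its correlation with Fasn was 0.64. Several of the genes found lay close to the array medians of 4.13 to 4.17 or under them. Mean levels in Ppara KO and WT were 1.82 and 1.69 for Pramel17 and 4.40 and 4.47 for Recql4. For Nap1l5 they were 3.93 and 3.84, for Sobp 3.87 and 3.78 and for Pif1 4.44 and 4.38. Above these lay Gpam (9.54 and 9.85), Ndufa12 (7.56 and 7.59), Car1 (6.40 and 5.70), Cd3eap (5.16 and 5.21) and Gbp4 (4.91 and 4.77). The correlations given are the highest over the genes kept for this search and are a description.

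Markers of fat tissue, which itself makes fatty acids, were high in some of the WT livers. Of 9 adipocyte markers 8 were measured. Their mean log2 value was 4.50 to 4.77 in Ppara KO, against 5.43, 6.14 and 6.17 in WT 1, 3 and 5 and 4.64, 4.60 and 4.90 in WT 2, 4 and 6. Fabp4, a fatty acid carrier gene of adipocytes, was at 5.52 to 6.82 in Ppara KO, and at 7.91, 8.88 and 8.75 in WT 1, 3 and 5. Adipoq, the adiponectin gene, was at 3.33 to 3.67 in Ppara KO and reached 5.20 and 5.41 in WT 3 and 5. In WT 1 it was at 4.19, near the 4.15 of WT 6, and in WT 2 and 4 at 3.80 and 3.61. Cidec (5.97, 7.26 and 6.94) and Retn (5.90, 7.44 and 7.43) were also high in WT 1, 3 and 5. Other markers followed in part or not at all. Plin1 was at 4.57 in WT 1 and 4.55 in WT 6, and Lipe at 5.70 and 5.69. Lep was at 2.73 in WT 3, within its range of 2.59 to 3.18 in Ppara KO. Pparg was higher in Ppara KO (6.48 to 6.92) than in WT (5.60 to 6.20). Without WT 1, 3 and 5 the differences shrank to -0.13 for Fasn, -0.12 for Me1 and -0.06 for Acly, and that of Acss2 to -0.36 with its call lost (limma adjusted p = 0.198). The difference of Thrsp was 1.04 without them and stayed called (limma adjusted p = 0.00371), that of Acaca was 0.28 and was not called (adjusted p = 0.238). This comparison has 3 WT animals, so its intervals are wider. WT 1, 3 and 5 moved these genes unequally when left out singly. With all animals the differences of Acly, Acss2, Fasn and Me1 were -0.20, -0.45, -0.31 and -0.35. Without WT 1 alone they were -0.09, -0.38, -0.23 and -0.27 in that order, and without WT 3 alone -0.18, -0.42, -0.30 and -0.37. Without WT 5, the animal with the highest marker mean, they were -0.25, -0.48, -0.28 and -0.26. The part of fat tissue in these differences was not tested.

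Genes that feed or steer the pathway were taken from lists of genes chosen by name. The counts of calls in these lists stand beside shares over all 22180 genes of 4.46% higher and 5.77% lower in Ppara KO. Of 9 measured genes of citrate and NADPH supply 2 fell and 0 rose. They were Cs, citrate synthase (8.93 ± 0.13 in Ppara KO, 9.34 ± 0.09 in WT), and Pgd, which yields NADPH in the pentose phosphate pathway (7.62 ± 0.12 in Ppara KO, 8.05 ± 0.16 in WT; SD, n = 6 each). The groups did not overlap for either gene, an arrangement found in 6.51% of all genes. Slc25a1, the citrate carrier of mitochondria, had a difference of -0.02 ± 0.06 (SE) and was not called. Without WT 1, 3 and 5 the list had 1 fall.

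Of 13 measured genes of SREBP and LXR control 3 fell and 0 rose, and all 3 encode SREBP-2 or proteins that hold or escort SREBP precursors. Insig2, which encodes an anchor that holds SREBP in the endoplasmic reticulum, had values of 7.85, 8.84, 7.85, 8.45, 8.40 and 7.84 in Ppara KO animals 1 to 6, against 9.42, 9.22, 9.35, 9.002, 9.41 and 9.02 in WT animals 1 to 6. The groups did not overlap (6.51% of all genes did not), and the difference was -1.03 ± 0.16 (SE, limma adjusted p = 8.28e-04). Srebf2, the gene of SREBP-2, had a difference of -0.56 ± 0.10 (SE, adjusted p = 0.00245), and Scap, the escort protein of SREBP, of -0.35 ± 0.09 (SE, adjusted p = 0.0152). Insig1, an anchor gene that is itself induced by SREBP, was at 11.29 ± 0.27 in Ppara KO and 11.29 ± 0.20 in WT (SD, n = 6 each). Nr1h3, the gene of LXRα, which activates Srebf1, had a difference of -0.11 ± 0.07 (SE). Without WT 1, 3 and 5 the list had 2 falls. Of 7 LXR targets outside lipogenesis 1 fell, Pltp, the phospholipid transfer protein gene (8.77 ± 0.23 in Ppara KO, 9.58 ± 0.22 in WT), and 0 rose. Without WT 4 that list had 2 falls.

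Of 9 measured ChREBP targets outside lipogenesis 2 rose and 3 fell. The rises were Slc2a2, the glucose transporter GLUT2 (0.50 ± 0.08, difference ± SE), and Klf10, a transcriptional repressor gene (0.56 ± 0.15). The falls were Gpd1, which makes glycerol 3-phosphate (-0.77 ± 0.10), Tm6sf2, which acts in VLDL lipidation (-0.48 ± 0.08), and G6pc, glucose-6-phosphatase (-0.61 ± 0.17). Pklr, liver pyruvate kinase and the classical ChREBP target, had a difference of 0.23 ± 0.08 and was not called (limma adjusted p = 0.0983). The list had 2 rises and 2 falls without WT 1, 3 and 5, and 1 rise when any 1 of WT 2, 3 and 4 or Ppara KO 1, 5 and 6 was left out. The 11 measured genes of insulin and glucose input held 1 rise, Pik3r1, a regulatory subunit of PI3-kinase (0.51 ± 0.11), and 1 fall, Irs2, an insulin receptor substrate (-0.95 ± 0.22). Neither was called without WT 1, 3 and 5, and without WT 2 alone the list had 2 falls.

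In the list on control of acetyl-CoA carboxylase 3 of 13 genes rose and 2 fell. Both catalytic subunit genes of AMPK, the kinase that inactivates the carboxylases, rose: Prkaa2 by 0.35 (SE 0.07) and Prkaa1 by 0.28 (SE 0.07). Trib3, a pseudokinase gene linked to carboxylase degradation, rose by 0.51 (SE 0.12). Mlycd, malonyl-CoA decarboxylase, which removes the carboxylase product, fell by 0.40 (SE 0.07), and Nabp2, which encodes a single-stranded DNA-binding protein and is not a gene of carboxylase control by that role, fell by 0.28 (SE 0.06). Without WT 1, 3 and 5 there was 1 rise and 1 fall. Of 6 measured genes of the thyroid hormone axis, to which Thrsp responds, 1 rose, the transporter gene Slc16a10 (0.39 ± 0.11), and 1 fell, the receptor gene Thra (-0.35 ± 0.10). Thrb, the main thyroid hormone receptor gene of liver, had a difference of 0.13 ± 0.08, and Dio1, a deiodinase gene induced by the hormone, of 0.06 ± 0.12, neither called. The list had no rise without WT 1, 3 and 5, or when any 1 of WT 1 and 5 or Ppara KO 1, 3, 5 and 6 was left out, and no fall when any 1 of WT 1, 2 and 5 or Ppara KO 2, 3 and 5 was left out. The 4 measured genes of biotin and acyl carrier cofactors had 0 calls in limma (adjusted p of 0.0518 to 0.764), although 3 of them had an unadjusted p under 0.05. The mean over the list was at most 6.38 in Ppara KO animals and at least 6.46 in WT animals. That is not particular to this list. The list mean was at most 7.68 in Ppara KO and at least 7.73 in WT for SREBP and LXR control. For citrate and NADPH supply these values were 8.10 and 8.11. Means of the PPARα targets and of the clock genes did not overlap either. Falls were called in 9 of 23 alternatives, with 3 genes called when genes under the median level were left out and 1 gene in each of the others, among them those without WT 3, 4 or 5 or Ppara KO 4, 5 or 6.

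Downstream of palmitate, 5 of 13 genes of fatty acid modification and storage fell and 2 rose, with a median difference of -0.31. Scd1, the main liver stearoyl-CoA desaturase, was at 12.05 ± 0.25 in Ppara KO and 12.47 ± 0.12 in WT (SD, n = 6 each), a difference of -0.42 ± 0.11 (SE, limma adjusted p = 0.0195). Elovl3, an elongase gene, fell by 1.72 (SE 0.24), Pnpla3, a lipase-family gene driven by SREBP-1c, by 1.80 (SE 0.39), Agpat2, an acyltransferase gene, by 0.61 (SE 0.10), and Acsl5, an acyl-CoA synthetase gene, by 0.46 (SE 0.09). Lpin1, a phosphatidate phosphatase gene, rose by 1.06 (SE 0.21) and Dgat2, which makes triglyceride, by 0.33 (SE 0.07). Elovl6, the elongase that acts directly on palmitate, had a difference of -0.10 ± 0.16 and Gpam, the first acyltransferase of glycerolipid synthesis, of -0.31 ± 0.11, neither called. Without WT 1, 3 and 5 the list had 2 falls and 1 rise. Cholesterol synthesis, the SREBP-2 pathway, had 5 falls and 0 rises among 15 measured genes (median -0.29), and 1 fall without those animals.

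**Figure D5:**
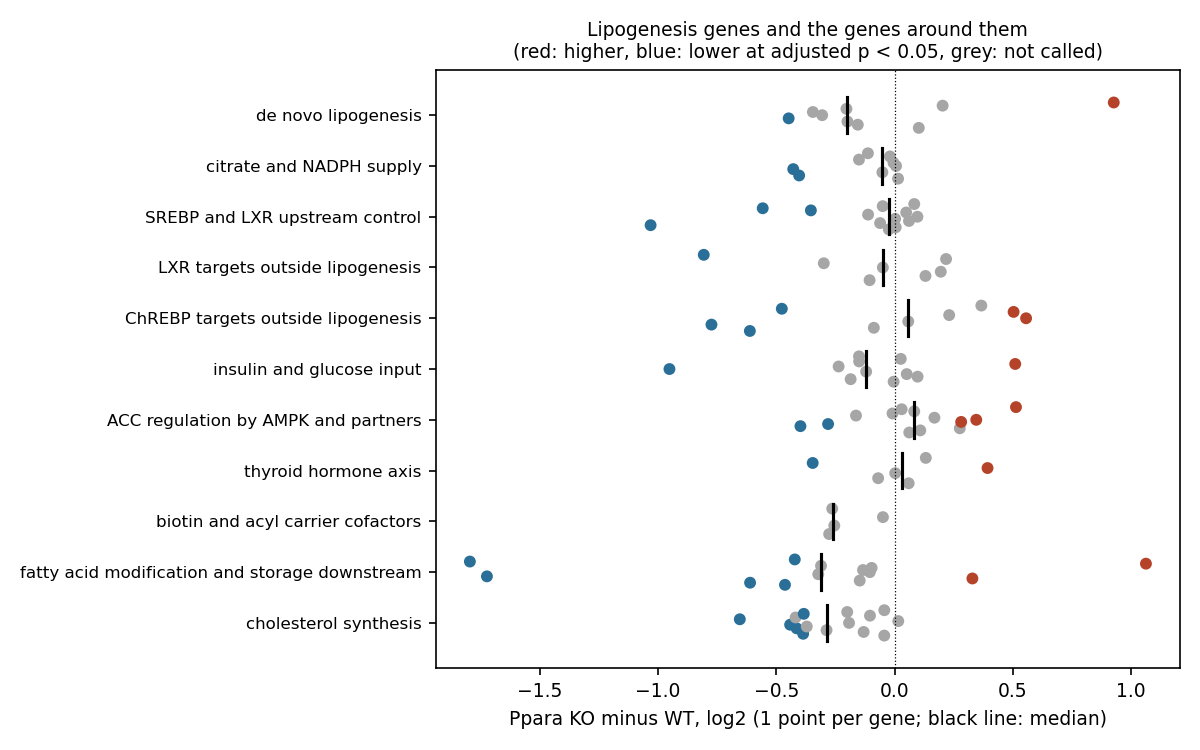
Difference of Ppara KO minus WT in log2 units for the genes of 11 lists, 1 point per gene and a black line at the median of the list. Calls in red (higher) and blue (lower) appear in every list except that of biotin and acyl carrier cofactors, and 7 of the 9 lipogenesis genes in the top row are grey, with Thrsp at 0.93 and Acss2 at -0.45.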

How the data were processed

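Liver RNA of 12 mice was hybridised to 1-colour arrays, 1 per animal. The deposited values are log2 expression made with RMA and Partek (version unstated), per the submitters' processing notes. RMA brings arrays to a common distribution and compresses differences of dim genes, and the number of arrays limits the precision (median SE of a log2 difference 0.0926). Of 41345 transcript clusters, 23521 carried 1 gene symbol in the platform annotation, 1814 several, and 16010 were not listed. A gene with several clusters was read through its brightest one on average, which left 22180 genes. Entrez identifiers were looked up in RefSeq (0 symbols changed). Genes read only through other clusters were not used here.

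Ppara KO minus WT was fitted over all genes with limma 3.58.1 in R 4.3.3 (lmFit, eBayes, no covariate, 2-sided) with Benjamini-Hochberg adjustment. The fit was also run on simulated data with known changes. Those data drew each gene independently, so they cannot show how the calls behave where genes vary together. Single genes and the 3 ratios were compared by exact permutation of the arrays, with numpy 2.4.6. Animal numbers are separate animals within a genotype. The labels state no pairing, and same-numbered animals were not paired in the main fit. Same-numbered animals did not deviate together (r from -0.05 to 0.04 over genes). That check, over all genes, cannot show whether they shared a litter or batch. The members, gene lists, ratios and tests were chosen with earlier results of these data known. Named from a list were up to 4 called genes by adjusted p and up to 2 uncalled ones by level. Other list genes, namely Scd1, Pnpla3, Dgat2, G6pc, Prkaa1, Mid1ip1, Nr1h3, Elovl6 and Thrb, were named after their values were seen. Alternatives were other variance priors, array weights, renormalization, centring, a filter on level, the cluster rule, all clusters, the animal number as a block, a threshold of 0.01, each animal left out, and WT 1, 3 and 5 left out.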

Additional observations from a re-analysis of the deposited data

How the results depend on the processing

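The precision is limited by 6 arrays per genotype. Thrsp kept its rise and its call in all 23 alternatives (0.85 to 1.04). Fasn, Acly, Acaca, Acacb, Me1 and Srebf1 kept their direction in every alternative and were called in none, although single animals moved the sizes for Acly, Acaca and Srebf1 by over 1.5 times. Acss2 kept its direction but lost its call without WT 1, 3 and 5 (-0.36), with all transcript clusters tested (-0.45) and at a threshold of 0.01 (-0.45). Leaving out 1 animal at a time gave -0.53 to -0.38 for Acss2. Mlxipl was called with an intensity trend and with genes under the median level left out (-0.20 in both), and ran from -0.23 to -0.17 with 1 animal left out. The ratio of Acacb to Acaca passed without WT 1, 3 and 5 (-0.41) and ran from -0.36 to -0.20 with 1 animal left out. The ratio of Mlxipl to Srebf1 did not pass without WT 1, 3 and 5 (-0.32) and ran from -0.50 to -0.34 with 1 animal left out. The ratio of Thrsp to Fasn kept its call in all 16 alternatives run on it. The count of the 9 genes called was 1 without WT 1, 3 and 5, 1 with all transcript clusters and 1 at 0.01, and 1 to 3 with 1 animal left out. It was 3 with an intensity trend and with genes under the median level left out. Over all genes the count of calls was 2268, with 1008 without WT 1, 3 and 5, 1070 at a threshold of 0.01, 2688 with an intensity trend, 2802 with genes under the median level left out, and 1817 to 2130 with 1 animal left out. With the animal number as a replicate block limma called 1672 genes and the same 2 of the 9 genes, Thrsp (adjusted p = 8.21e-04) and Acss2 (adjusted p = 0.0201). Of 1012 recomputed counts over the other lists, 908 stayed within 1.5 times of the reported count. Many of the reported counts were 0, and each 0 that stayed 0 is among the 908. That share therefore says little about the lists that held calls. The causes of these changes were not tested.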

Other observations

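Pparg, which encodes PPARγ, a nuclear receptor that drives fat storage and can activate lipogenic genes in fatty liver, was on the adipocyte marker list, whose median difference was -0.75, but rose. Its log2 values were 6.72, 6.54, 6.51, 6.48, 6.92 and 6.55 in Ppara KO animals 1 to 6, against 6.05, 5.70, 6.20, 5.91, 6.04 and 5.60 in WT animals 1 to 6. The groups did not overlap (6.51% of all genes did not), and the difference was 0.70 ± 0.11 (SE, limma adjusted p = 6.74e-04). Of the other 7 measured adipocyte markers, 2 fell (Adipoq and Lipe), 0 rose and 5 were not called. Without WT 1, 3 and 5, the animals high in these markers, neither fall was called. Leaving out 1 animal gave 1 fall without WT 3 or Ppara KO 1, 2, 3 or 6 and 5 falls without WT 4.

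Slc2a2 and Irs2, whose animals are given here after their values were seen, separated the genotypes in opposite directions. Values of the genotypes did not overlap in 6.51% of all genes. Slc2a2 was at 11.35, 11.07, 11.19, 11.07, 11.16 and 11.51 in Ppara KO animals 1 to 6, against 10.62, 10.71, 10.72, 10.68, 10.81 and 10.79 in WT animals 1 to 6. Irs2 was at 7.98, 6.71, 6.76, 7.27, 7.80 and 8.17 in Ppara KO animals 1 to 6, against 8.18, 8.55, 8.39, 8.65, 8.31 and 8.32 in WT animals 1 to 6, with Ppara KO 6 next to WT 1.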
